A study of Mus musculus with 2 samples.

Results

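Expression of 8 genes of the neural crest and Schwann lineage was compared between GFP-high and GFP-low cells sorted from newborn mouse tongue: *Sox10*, *Ednrb*, *Fabp7*, *Cdh19*, *Gfra3*, *Gpr17*, *S100b* and *Erbb3*. These 8 of the 21628 entries in the deposited table were chosen from their known role in that lineage and because several of them were higher in GFP-low cells. All 8 have a value in both libraries. Pups were at P0, the day of birth, and carried Sox2GFP, a reporter that makes GFP where *Sox2* is expressed, so cells of both groups share this allele and differ in the brightness by which they were sorted. Lingual epithelium was peeled enzymatically from pooled pups and dissociated, about 100000 cells were collected for each population, and 1 library was sequenced for each. There is no replicate and no untreated or reporter-free control among the libraries, so no difference has an error or a test, and levels in bulk RNA cannot tell fewer cells of a type from less RNA per cell.

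Neural crest cells leave the dorsal neural tube during embryogenesis and give rise to peripheral glia, sensory and autonomic neurons, melanocytes and much of the connective tissue of the head. Schwann cell precursors, the early glia among them, travel along growing nerves, and their survival depends on neuregulin that axons present to ERBB3. The transcription factor SOX10 is kept in the glial and melanocyte lineages, where it acts on genes for glial receptors and myelin proteins. The tongue is densely innervated, and nerve fibres with their Schwann cells run up to the epithelium and the taste buds.

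Expression is given as FPKM, read fragments scaled to transcript length and to the size of the library, which can be set side by side between genes. The labels give about 75000000 reads per sample. Low FPKM of genes with 1 annotated transcript fell most often on the steps of whole reads near 27500000 reads for GFP-high cells and 35000000 reads for GFP-low cells. Both estimates are rough, since 60.8% of 186 low values and 67.5% of 123, in that order, lay within 0.15 of a whole read. Keratinocyte genes were abundant in both libraries, with *Krt5* at 9667 FPKM in GFP-high and 10422 FPKM in GFP-low cells, which matches the epithelial source given in the labels.

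Of the 8 genes, 7 (all but *Erbb3*) were under 1 FPKM in GFP-high cells, at 0.12 to 0.69 FPKM. They stood between 3.44 and 42.7 FPKM in GFP-low cells. The ratio of GFP-low to GFP-high, called the fold from here on, lay between 28.7 and 115 for these 7 genes, with a median of 64.0. Their summed level was 125 FPKM in GFP-low cells and 2.30 FPKM in GFP-high cells. *Erbb3* was at a similar level in both libraries. A gene was counted as enriched at 5 FPKM or more in the higher population and a fold of at least 1.5, the study's own rule. By this rule 6 of the 8 genes were enriched in GFP-low cells, as were 8.9% of the 10760 genes at 5 FPKM or more in at least 1 library. In the opposite direction 0 of the 8 were enriched, against 9.48% of the same 10760 genes. These 6 genes also had folds of 20 or more, as had 0.4% of the 10760 genes. Since enrichment in GFP-low cells helped to choose the genes, these counts are a description only. The rule is also worded in the study's methods as 5 FPKM in each sample, and read that way it counts 0 of the 8, because 7 of them are under 1 FPKM in GFP-high cells.

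**Figure D1:**
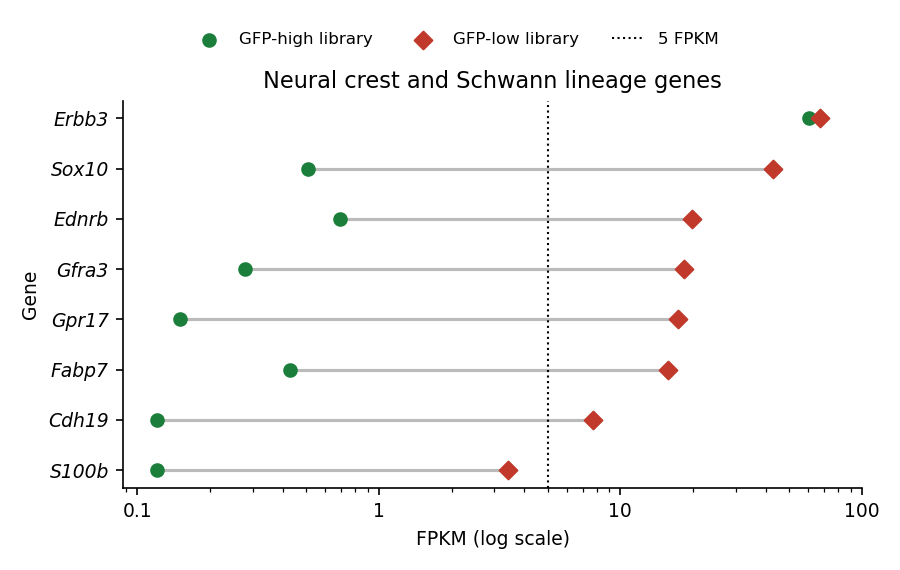
FPKM of the 8 lineage genes in the GFP-high library (circles) and the GFP-low library (diamonds) on a log axis, ordered by level in GFP-low cells, with 1 library per population and a dotted line at 5 FPKM. *Erbb3* has nearly the same level in both, while the other genes are under 1 FPKM in GFP-high cells and between 3.44 and 42.7 FPKM in GFP-low cells.

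*Sox10* encodes the SoxE transcription factor on which neural crest glia and melanocytes depend. Its level was 42.7 FPKM in GFP-low cells and 0.51 FPKM in GFP-high cells, a fold of 83.8, so that GFP-high cells held 1.19% of the GFP-low level. The gene (ENSMUSG00000033006) lies on the minus strand of mm10 chromosome 15, 79154908 to 79165240. No exon of it overlaps another annotated gene. Of its flanking genes, *Polr2f*, a subunit of RNA polymerases, had 313 FPKM in GFP-low and 376 FPKM in GFP-high cells, and *Pick1*, a PDZ-domain scaffold protein, had 57.6 and 56.7 FPKM. Among the other SoxE genes, *Sox9* was at 25.9 FPKM in GFP-low and 35.0 FPKM in GFP-high cells and *Sox8* was at 1.04 and 0.39 FPKM.

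The receptor genes *Ednrb*, *Gfra3* and *Gpr17* were low in GFP-high cells. *Ednrb*, the type B endothelin receptor, through which endothelin 3 acts on crest cells that form enteric neurons and melanocytes, was at 19.9 FPKM in GFP-low and 0.69 FPKM in GFP-high cells, a fold of 28.8. It had the highest GFP-high level of the 7 genes. *Gfra3*, the membrane-anchored co-receptor for artemin, was at 18.4 FPKM in GFP-low and 0.28 FPKM in GFP-high cells, a fold of 65.6. *Gpr17*, a G protein-coupled receptor best known from oligodendrocyte precursors, was at 17.3 FPKM in GFP-low and 0.15 FPKM in GFP-high cells. Its fold of 115 was the largest of the 8 genes, and it ranked 5 by fold among the 958 genes enriched in GFP-low cells, with *Sox10* at rank 6, *Gfra3* at rank 9 and *Cdh19* at rank 10. Exons of *Gpr17* share 188 nt with *Lims2* on the opposite strand, and *Lims2* was at 3.92 FPKM in GFP-low and 0.80 FPKM in GFP-high cells. The library kit keeps the strand, but whether the counting used it is not given in the sources used here. In GFP-low cells *Ednrb*, *Gfra3*, *Gpr17* and *Fabp7* stood close together, between 15.7 and 19.9 FPKM, with no replicate to say whether they differ.

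*Fabp7*, the brain-type fatty acid-binding protein of radial glia and early Schwann cells, was at 15.7 FPKM in GFP-low and 0.43 FPKM in GFP-high cells, a fold of 36.6. *Cdh19*, a type II cadherin known from peripheral glia, was at 7.68 FPKM in GFP-low and 0.12 FPKM in GFP-high cells, a fold of 64.0. *S100b*, a calcium-binding protein used as a marker of Schwann cells, was at 3.44 FPKM in GFP-low and 0.12 FPKM in GFP-high cells, a fold of 28.7. *Cdh19* is thus, of the 6 enriched genes, the nearest to the 5 FPKM limit, and *S100b* lies under it despite a fold close to that of *Ednrb*. With a limit of 1 FPKM *S100b* is counted as well. At the estimated depth the GFP-high values correspond to about 4 reads for *S100b*, 12 for *Fabp7*, 13 for *Cdh19*, 14 for *Gfra3*, 21 for *Gpr17*, 40 for *Sox10* and 77 for *Ednrb*, against 155 to 4264 reads in GFP-low cells. The size of these folds therefore rests on about 4 to 77 reads in GFP-high cells and, for *Cdh19*, *S100b* and *Gpr17*, on values rounded to 2 decimals.

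*Erbb3* encodes the neuregulin receptor of Schwann cell precursors, which is also made by many epithelia. It was the most abundant of the 8 genes in either library, at 66.9 FPKM in GFP-low and 60.3 FPKM in GFP-high cells, a fold of 1.11. At the estimated depth about 13616 reads in GFP-low and 9636 in GFP-high cells stand behind these values. Its flanking genes were also even, with *Pa2g4*, a cell growth regulator, at 303 and 283 FPKM and *Rps26*, a ribosomal protein gene, at 1885 and 1788 FPKM.

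*Fabp7* (chromosome 10, 57784881 to 57788450, plus strand), *S100b* (chromosome 10, 76253853 to 76261159, plus strand) and *Erbb3* (chromosome 10, 128567523 to 128589652, minus strand) share a chromosome but not a neighbourhood. *Ednrb* lies on chromosome 14, 103814625 to 103844402, minus strand, and *Cdh19* on chromosome 1, 110888326 to 110977584, minus strand. Of the 14 protein-coding genes that flank the 7 uneven genes, 9 reached 5 FPKM in at least 1 library and 0 were enriched in GFP-low cells, where the share among all such genes was 8.9%, so that a count of 0 is near the background. Beside *S100b*, *Prmt2* had 13.1 FPKM in GFP-low and 23.1 FPKM in GFP-high cells and *Pcnt* had 16.5 and 15.4 FPKM. Beside *Fabp7*, *Smpdl3a* had 20.9 and 35.5 FPKM and *Pkib* 0.05 and 0.50 FPKM. Of 50-nt windows in the annotated transcripts, the length of the reads, at most 1.87% occurred in a transcript of another gene for any of the 8 genes, the highest share being that of *Gpr17*.

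Promoter sequence was at hand for *Ednrb*, *Fabp7* and *S100b*, which share the pattern of low GFP-high levels, and it is shown so that these genes can be compared at their start sites. Each run holds 250 bases before and 50 after the RefSeq start of the gene, on the GRCm38.p6 assembly and on the strand of the gene: chr14:103843652-103843951 for *Ednrb*, chr10:57784673-57784972 for *Fabp7* and chr10:76253586-76253885 for *S100b*. Capitals mark a motif found, and the runs of *Fabp7* and *S100b* have none. On both strands the letters ACAAAG and ACAATG, the core bound by the HMG domain of SOX factors, were absent from these windows, and 28.6% of all 32851 promoter windows hold either. The letters GCCNNNGGC, bound by the crest factor TFAP2A and its relatives, occurred at position -195 of *Ednrb*, counted from the start site, and 16.6% of all windows hold them. A match of letters is no evidence of binding.
Ednrb: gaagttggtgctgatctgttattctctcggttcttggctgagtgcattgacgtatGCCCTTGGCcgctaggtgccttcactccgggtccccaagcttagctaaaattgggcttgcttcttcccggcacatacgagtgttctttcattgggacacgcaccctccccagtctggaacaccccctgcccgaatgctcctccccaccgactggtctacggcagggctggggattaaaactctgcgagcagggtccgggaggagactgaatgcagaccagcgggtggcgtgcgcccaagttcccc
Fabp7: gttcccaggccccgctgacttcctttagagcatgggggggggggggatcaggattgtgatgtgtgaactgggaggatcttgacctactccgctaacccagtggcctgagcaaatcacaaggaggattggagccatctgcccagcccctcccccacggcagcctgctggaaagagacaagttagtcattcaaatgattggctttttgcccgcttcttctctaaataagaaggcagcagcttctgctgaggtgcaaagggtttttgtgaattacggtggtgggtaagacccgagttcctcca
S100b: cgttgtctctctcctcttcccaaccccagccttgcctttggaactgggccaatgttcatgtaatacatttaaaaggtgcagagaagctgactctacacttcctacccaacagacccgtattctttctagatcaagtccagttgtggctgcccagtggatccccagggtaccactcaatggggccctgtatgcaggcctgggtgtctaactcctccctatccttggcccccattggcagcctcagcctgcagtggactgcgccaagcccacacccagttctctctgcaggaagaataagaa

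The ligands and partner receptors of ERBB3, EDNRB and GFRA3 were read from lists of each pathway. Of 7 genes of neuregulin and ERBB signalling besides *Erbb3*, 3 reached 5 FPKM and 0 were enriched in either direction. Among all genes at that level 8.9% were enriched in GFP-low and 9.48% in GFP-high cells, so that a count of 0 is near the background. *Erbb2*, the partner with which ERBB3 forms an active receptor, was at 121 FPKM in GFP-low and 162 FPKM in GFP-high cells, and *Egfr*, the EGF receptor, was at 68.9 and 82.7 FPKM. *Nrg1*, which encodes the neuregulin known from axons, was at 5.58 FPKM in GFP-low and 5.36 FPKM in GFP-high cells. The other ligands and *Erbb4* were barely detected: *Nrg2* had 0.44 and 0.52 FPKM, *Nrg4* 0.18 and 0.16 FPKM, *Nrg3* 0.01 and 0.05 FPKM, and *Erbb4* 0.02 FPKM in each. The receptor genes *Erbb3*, *Erbb2* and *Egfr* thus all stayed under the 1.5-fold limit.

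In endothelin signalling, with 4 of 7 listed genes at 5 FPKM, both receptor genes were lower in GFP-high cells and no ligand gene was. *Ednra*, the type A receptor of smooth muscle and mesenchyme, was at 4.48 FPKM in GFP-low and 0.85 FPKM in GFP-high cells, under the limit of 5 FPKM. *Edn2* was even, at 62.9 and 63.8 FPKM. *Edn1* was at 12.2 FPKM in GFP-low and 20.4 FPKM in GFP-high cells, 1.67-fold higher in the latter and counted there. *Edn3*, the ligand best known for acting on crest cells, was at 0.18 and 0.77 FPKM. *Ece1*, which cleaves the precursors of endothelins, had the highest level in this list, 776 FPKM in GFP-low and 514 FPKM in GFP-high cells, a fold of 1.51 that passed the threshold narrowly and no longer passed once GFP-low values were multiplied by the median of the gene ratios. The related protease gene *Ece2* had 13.7 and 13.0 FPKM, and *Kel* was listed at 0 in GFP-low and at 0.05 FPKM in GFP-high cells.

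The GDNF family held genes that leaned each way, and 5 of the 8 listed reached 5 FPKM. Of those, 2 were enriched in GFP-low and 2 in GFP-high cells, against 8.9% and 9.48% of all genes at that level. Besides *Gfra3*, the co-receptors *Gfra2*, which binds neurturin, and *Gfra1*, which binds GDNF, were enriched in GFP-low cells, with 14.4 against 0.73 FPKM and 11.1 against 2.80 FPKM, folds of 19.8 and 3.97. *Gfra4*, the co-receptor for persephin, was at 3.04 FPKM in GFP-low and 4.0 FPKM in GFP-high cells. *Artn*, the artemin ligand of GFRA3, leaned the other way, with 27.1 FPKM in GFP-high and 10.7 FPKM in GFP-low cells, 2.53-fold higher in the former. *Ret*, the tyrosine kinase that signals for all these co-receptors, was at 5.03 FPKM in GFP-high and 2.23 FPKM in GFP-low cells, just over the limit. After division of the libraries by their FPKM sums, 1 gene of this list in place of 2 was enriched in GFP-high cells. *Nrtn* had 9.51 FPKM in GFP-low and 8.34 FPKM in GFP-high cells, *Gdnf* 1.77 and 1.29 FPKM, and *Pspn* 0.41 and 1.02 FPKM. In GFP-low cells *Gfra3* and *Gfra2* were therefore well above *Ret*, at 18.4 and 14.4 against 2.23 FPKM.

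**Figure D2:**
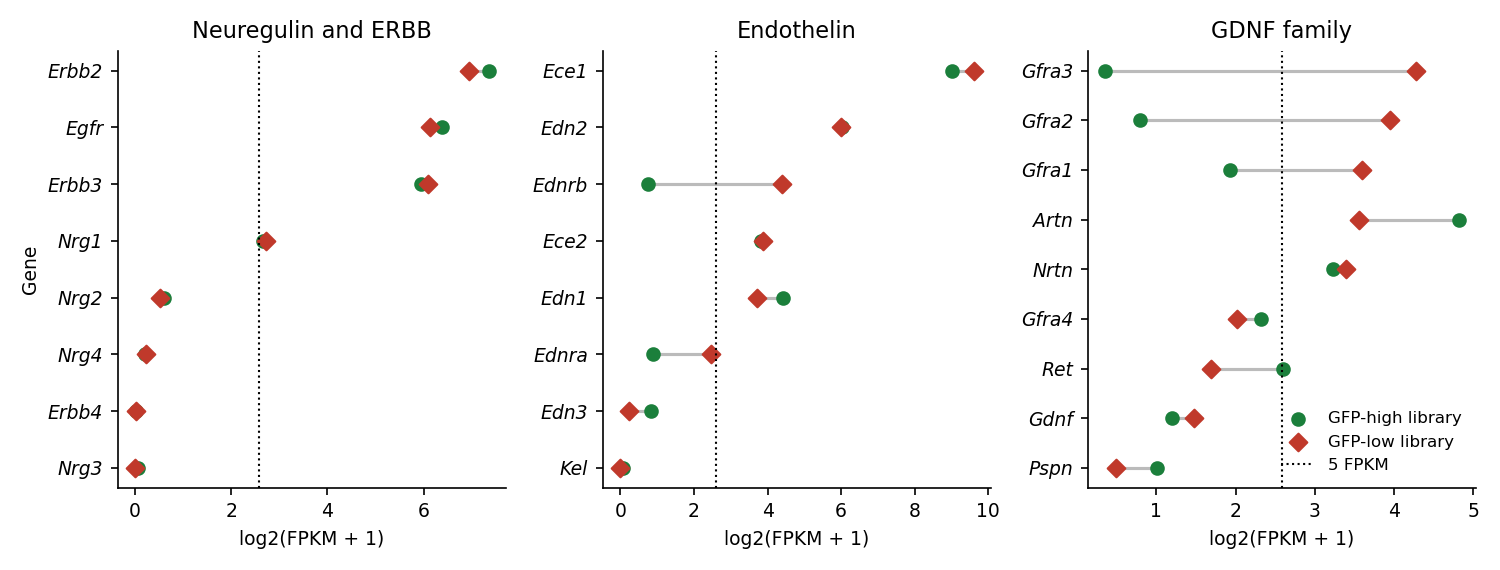
log2(FPKM + 1) in the GFP-high library (circles) and the GFP-low library (diamonds) for ligands, receptors and processing enzymes around *Erbb3*, *Ednrb* and *Gfra3*, each panel ordered by GFP-low level, with a dotted line at 5 FPKM. *Erbb2*, *Egfr* and *Erbb3* sit together in both libraries, while *Ednrb*, *Gfra3* and *Gfra2* are far apart between them.

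Among 20 transcription factor genes known from the neural crest, 9 reached 5 FPKM. Of those, 4 were enriched in GFP-low and 1 in GFP-high cells, against 8.9% and 9.48% of all genes at that level. *Foxd3*, a factor of early crest cells and Schwann cell precursors, was at 19.0 FPKM in GFP-low and 0.12 FPKM in GFP-high cells, a fold of 158. *Zeb2*, needed for crest migration and for myelination, was at 19.2 and 0.68 FPKM, a fold of 28.3. *Ets1* (17.9 and 4.26 FPKM) and *Msx2* (8.69 and 3.36 FPKM) were enriched less, with folds of 4.20 and 2.59. *Mitf*, the master regulator of melanocytes, went the other way, at 17.2 FPKM in GFP-high and 1.24 FPKM in GFP-low cells, 13.8-fold higher in the former. *Tfap2a*, a crest factor that keratinocytes also make, had the highest level of the list and was even, at 84.8 and 72.1 FPKM. *Zic1* was listed at 0 in both libraries. On the log2(FPKM + 1) scale, on which differences of low genes come out too small, the median over the list was 0.30 and that of all genes 0.02.

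Most genes of Schwann cell precursors and immature Schwann cells that reached 5 FPKM were enriched in GFP-low cells. Of 19 such genes, 15 reached 5 FPKM, 12 were enriched in GFP-low and 1 in GFP-high cells, against 8.9% and 9.48% of all genes at that level, and their median difference on the log2(FPKM + 1) scale was 1.69. The list was written with earlier results of these data known, in which *Nkain4* already appeared, so its count is no independent evidence. *Nkain4*, which encodes a protein that interacts with the sodium pump, had the largest fold, 77.8, with 24.9 FPKM in GFP-low and 0.32 FPKM in GFP-high cells. *Gap43*, a growth-associated protein of axons and of Schwann cell precursors, was at 11.1 and 0.43 FPKM, a fold of 25.8.

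Other enriched genes of that list had smaller folds. *Pou3f1*, a factor of the promyelinating stage, was at 7.99 FPKM in GFP-low and 0.70 FPKM in GFP-high cells, a fold of 11.4. *Lgi4*, a secreted protein that Schwann cells need to myelinate on time, was at 15.7 and 2.24 FPKM, a fold of 7.0. *Moxd1* (113 and 21.4 FPKM), the myelin gene *Pmp22* (91.6 and 21.6 FPKM) and the neurotrophin receptor gene *Ngfr* (27.7 and 7.86 FPKM) had between 3.52-fold and 5.30-fold more in GFP-low cells and were well over 5 FPKM in GFP-high cells too. *Apoe*, a lipid carrier with the highest level of the list, was at 177 and 76.8 FPKM, *Cadm4* at 73.6 and 37.2 FPKM and *Ncam1* at 11.8 and 7.64 FPKM. *Sox2*, on whose reporter the cells were sorted, was at 59.0 FPKM in GFP-low and 112 FPKM in GFP-high cells and was enriched in the latter. *L1cam*, a neural adhesion molecule gene, also leaned that way, at 84.7 and 103 FPKM, without reaching a ratio of 1.5. *Dhh*, the hedgehog ligand of Schwann cells, was at 4.57 FPKM in GFP-low and 0.33 FPKM in GFP-high cells, under the limit of 5 FPKM.

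Genes of myelination were divided. Of 12 in the list, 6 reached 5 FPKM. Of those, 3 were enriched in GFP-low and 2 in GFP-high cells, against 8.9% and 9.48% of all genes at that level. The median difference over the list was -0.08 on the log2(FPKM + 1) scale. *Mbp*, myelin basic protein, was at 55.3 FPKM in GFP-low and 22.4 FPKM in GFP-high cells, *Cnp* at 24.8 and 9.94 FPKM and *Prx*, periaxin, at 9.16 and 5.21 FPKM. *Egr2*, the factor that drives peripheral myelination and is also made outside nerve, had the highest level of the list, 61.3 FPKM in GFP-high and 24.3 FPKM in GFP-low cells, and *Ncmap* was at 16.9 and 3.70 FPKM. *Mag*, the myelin-associated glycoprotein, was at 2.12 FPKM in GFP-low and 0.06 FPKM in GFP-high cells. *Cldn19*, a claudin of Schwann cells, was at 2.07 and 0.15 FPKM, so that *Mag* and *Cldn19*, both under the limit of 5 FPKM, had larger folds than the enriched *Mbp*, *Cnp* and *Prx*.

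**Figure D3:**
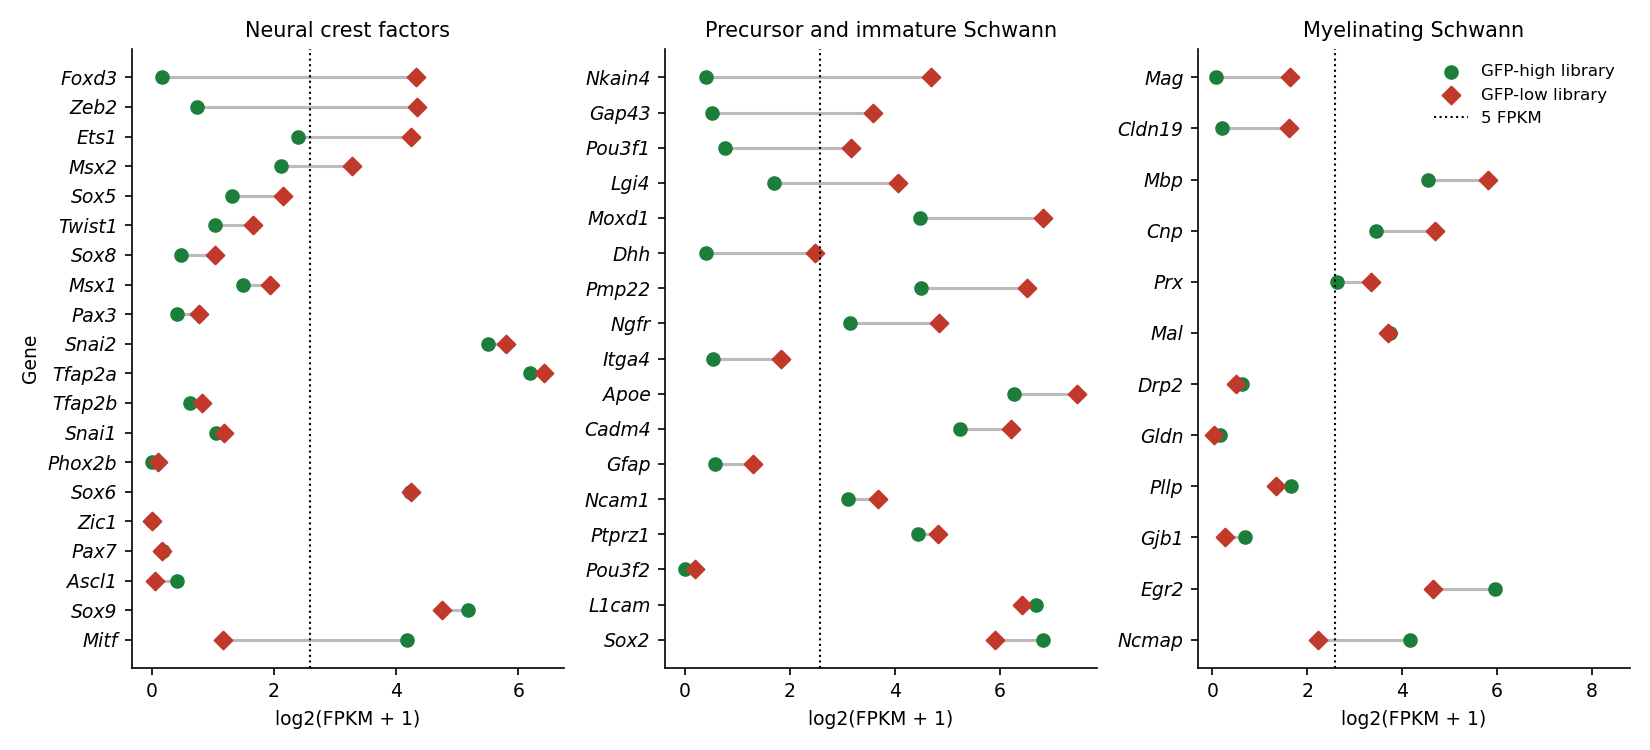
log2(FPKM + 1) in the GFP-high library (circles) and the GFP-low library (diamonds) for neural crest transcription factors, genes of precursor and immature Schwann cells, and myelination genes (2 genes of the middle list are not shown), each panel ordered by the difference, with a dotted line at 5 FPKM. The widest gaps are those of *Foxd3* and *Nkain4*, while *Mitf*, *Sox2*, *Egr2* and *Ncmap* lie to the right in GFP-high cells.

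Relatives of the 8 genes by family were mixed. Of 16 relatives, 9 reached 5 FPKM. Of those, 3 were enriched in GFP-low and 3 in GFP-high cells, against 8.9% and 9.48% of all genes at that level. By any amount, 4 of the 9 were higher in GFP-low cells, as were 5962 of all 10760 genes at 5 FPKM. *Fabp5*, the epidermal fatty acid-binding protein, was at 434 FPKM in GFP-high and 178 FPKM in GFP-low cells, 2.44-fold higher in the former, where *Fabp7* had a fold of 36.6 the other way. *Fabp4* was at 10.5 FPKM in GFP-high and 6.95 FPKM in GFP-low cells. *S100a6* was at 1376 and 703 FPKM, the highest level among these relatives. *Cdh6*, a type II cadherin like *Cdh19*, was at 5.05 FPKM in GFP-low and 0.27 FPKM in GFP-high cells, a fold of 18.7. Another cadherin gene, *Cdh10*, was at 1.68 and 0.05 FPKM, and *P2ry12*, a purine receptor gene, at 0.60 and 0.07 FPKM, both under the limit of 5 FPKM. Co-receptor genes *Gfra1* and *Gfra2* were the other enriched relatives of that direction.

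Markers of the other cell types that the sorted populations could hold were read beside these genes, and their part in the results was not tested. Over 11 fibroblast genes the summed level was 2358 FPKM in GFP-low and 557 FPKM in GFP-high cells. Of these genes 9 reached 5 FPKM and 7 were enriched in GFP-low cells, against 8.9% of all genes at that level. The collagen genes *Col1a1* (172 and 34.4 FPKM), *Col1a2* (167 and 33.2 FPKM) and *Col3a1* (966 and 193 FPKM, the highest level of the list) had folds of 4.99 to 5.02, *Dcn* of 3.52 (504 and 143 FPKM) and *Postn*, periostin, of 10.5 (436 and 41.6 FPKM). *Lum* (6.0 and 3.70 FPKM) and *Fn1* (46.6 and 30.2 FPKM) were near the 1.5-fold limit. *Fbln1* (40.2 and 54.9 FPKM) and *Thy1* (16.2 and 19.6 FPKM) were higher in GFP-high cells without reaching 1.5-fold. Over 8 genes of pericytes and smooth muscle the sums were 126 and 57.9 FPKM, and *Acta2* (49.5 and 16.3 FPKM, the highest level), *Tagln* (23.4 and 6.45 FPKM) and *Myh11* (6.56 and 0.80 FPKM) were enriched in GFP-low cells.

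Genes of other crest derivatives and of central glia were mostly under 5 FPKM. Of 10 melanocyte genes 2 reached 5 FPKM and 0 were enriched in GFP-low cells. The share among all genes at that level was 8.9%, so that a count of 0 is near the background. *Tyr*, the tyrosinase of pigment synthesis, was listed at 0 in both libraries. Of the other melanocyte genes, *Dct* was at 0.91 and 0.23 FPKM, *Tyrp1* at 0.88 and 0.04 FPKM, *Pmel* at 0.73 and 1.09 FPKM, and *Mlana* at 0.15 FPKM in GFP-low cells. Their sums of 30.7 FPKM in GFP-low and 51.3 FPKM in GFP-high cells came mostly from *Mitf* and *Kit*, the latter at 26.2 and 31.4 FPKM. Of 12 neuronal genes 11 had an entry, with sums of 83.0 FPKM in GFP-low and 25.2 FPKM in GFP-high cells. *Isl1*, a factor also made outside neurons, was at 74.3 and 11.7 FPKM and held most of the GFP-low sum. It was enriched in GFP-low cells, while *Stmn2*, at 2.22 and 10.4 FPKM, was enriched in GFP-high cells. *Uchl1* (4.21 and 1.71 FPKM) and *Prph*, peripherin (1.42 and 0.38 FPKM), were higher in GFP-low cells but under the limit, and *Elavl3*, *Elavl4*, *Snap25* and *Nefl* were at 0.33 FPKM or less in both. The neuronal median on the log2(FPKM + 1) scale was 0.0134. Over genes of at least 1 FPKM on average, which are only *Isl1*, *Stmn2* and *Uchl1*, it was 0.94, the value of *Uchl1*. Of 9 genes of the oligodendrocyte lineage, in which *Gpr17* and *Sox10* are also known, *Mog* and *Opalin* were listed at 0 in both libraries and *Olig1* and *Olig2* were at 0.43 FPKM or less, while *Nkx2-2* (0.77 and 0.03 FPKM) and *Cldn11* (0.96 and 0.11 FPKM) were higher in GFP-low cells at under 1 FPKM. *Cspg4*, which pericytes also make, held most of the sums of 43.1 and 33.3 FPKM, at 39.3 FPKM in GFP-low and 30.5 FPKM in GFP-high cells.

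Lists of the remaining cell types differed in direction. Over 9 endothelial genes the sums were 29.2 FPKM in GFP-low and 40.2 FPKM in GFP-high cells, with *Egfl7* highest (15.9 and 18.5 FPKM) and *Pecam1* (2.38 and 5.31 FPKM) enriched in GFP-high cells. Over 9 skeletal muscle genes they were 17.5 and 19.6 FPKM. *Tnnt3* (5.05 and 8.58 FPKM) was enriched in GFP-high cells, and *Acta1* (8.57 and 7.25 FPKM) reached nearly the same top level and was not enriched. Over 8 genes of leukocytes and macrophages they were 21.3 and 19.9 FPKM, most of it from *Cd68* (15.3 and 14.0 FPKM). Of these genes 1 reached 5 FPKM and 0 were enriched, which is near the background of 8.9% and 9.48% of all genes at that level. Over 8 keratinocyte genes they were 42646 and 68982 FPKM. *Krt13* (9738 and 30523 FPKM, the highest level), *Krt4* (2323 and 14203 FPKM) and *Epcam* (86.8 and 166 FPKM) were enriched in GFP-high cells. Of these keratinocyte genes 4 were higher in GFP-low cells without reaching 1.5-fold. They were *Krt5*, *Krt14* (9635 and 6672 FPKM), *Krt15* (9773 and 7093 FPKM) and *Trp63* (359 and 278 FPKM). Of 5 genes of type I taste cells, which are glia-like, *Slc1a3* (34.3 and 8.38 FPKM) and *Entpd2* (42.2 and 23.7 FPKM, the highest level) were enriched in GFP-low cells, and *Kcnj1* was listed at 0 in both. Under the limit of 5 FPKM, *Kcnj10* was at 2.80 FPKM in GFP-low and 0.08 FPKM in GFP-high cells and *Slc1a2* at 0.31 and 0.09 FPKM. Sums over this list were 79.6 and 32.2 FPKM. Its median log2(FPKM + 1) difference of 1.31 covers the few genes above 0, of which 2 reached 5 FPKM.

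**Figure D4:**
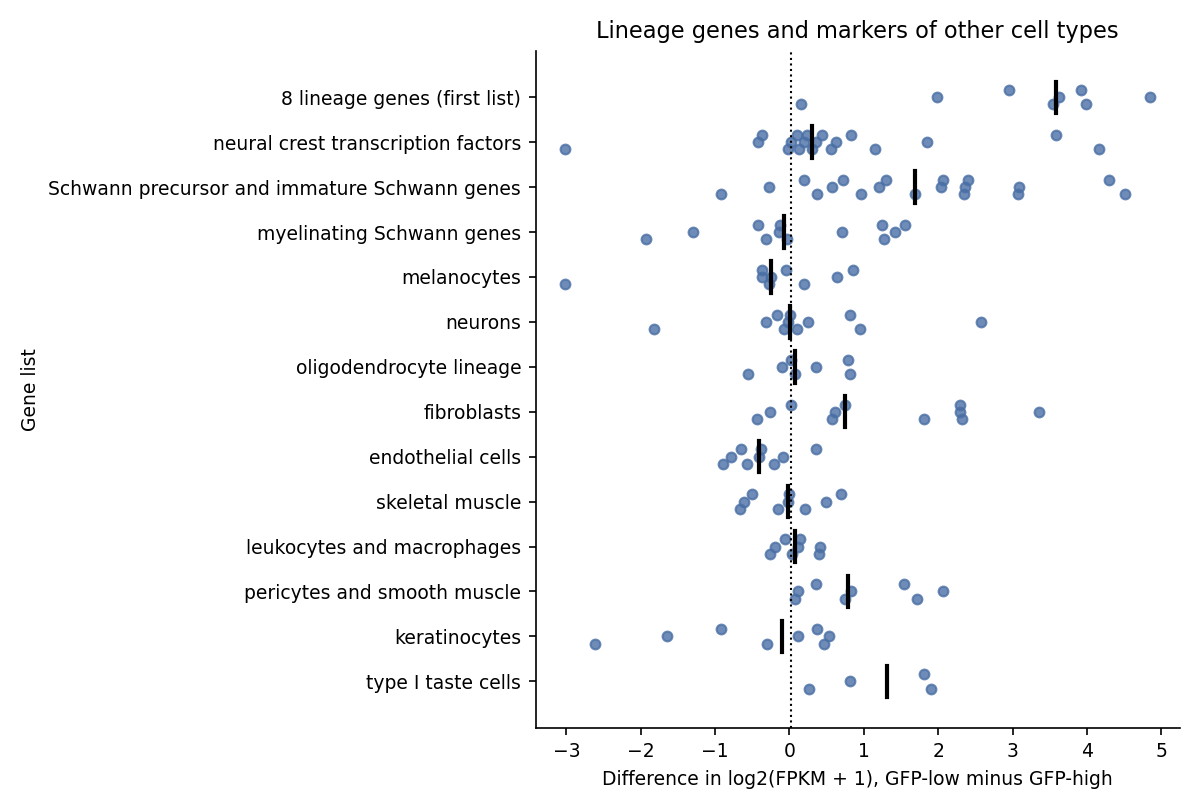
Difference in log2(FPKM + 1), GFP-low minus GFP-high, for each gene above 0 in at least 1 library (points), by gene list, with the list median as a black bar and the median of all genes as a dotted line. The median is 3.59 for the 8 lineage genes, 1.69 for precursor and immature Schwann genes and 1.31 for type I taste cell genes. It is 0.79 for pericyte and smooth muscle genes and 0.75 for fibroblast genes. Myelinating Schwann, skeletal muscle, melanocyte, endothelial and keratinocyte genes have medians under 0.

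The genes most like each of the 8 were sought as the 2 nearest in the plane of log2(FPKM + 1) of the 2 libraries. Nearest to *Gfra3* were *Gpr17* and *Foxd3*, at distances of 0.17 and 0.20, and nearest to *Gpr17* were *Foxd3* (0.13) and *Gfra3*. Nearest to *Ednrb* were *Zeb2* (0.05) and *Col11a1* (0.10), a fibrillar collagen gene at 18.4 FPKM in GFP-low and 0.69 FPKM in GFP-high cells. The neighbours of *Fabp7* were the potassium channel gene *Kcna6* (0.04) and the hair keratin gene *Krt83* (0.22), those of *Cdh19* were *Amelx* (0.02), which encodes the enamel protein amelogenin, and *Lyg1* (0.10), and those of *S100b* were *Mlip* (0.03) and *Sfrp5* (0.04). *Sox10* stood farther from its neighbours *Itih5* (0.45) and *Krtap3-1* (0.56). *Erbb3* had *Auts2* (0.01) and *Pafah1b1* (0.02) beside it. Hair keratin and keratin-associated genes are thus among the neighbours of *Fabp7* and *Sox10*, and 2 libraries do not separate them from glial genes.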

How the data were processed

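RNA of GFP-high and GFP-low cells was profiled in 1 library each. According to the submitters' processing notes and the study's methods, the authors trimmed single-end reads with Trimmomatic 0.36, mapped them to mm10 with GSNAP, obtained FPKM with Cufflinks 2.2.1 and deposited the FPKM values of each gene rounded to 2 decimals. Columns are named means, and each was taken for that of 1 library. The deposited signed fold column is the authors' own comparison and was not used. Depth and read counts are not in the table, so no count test was run and no interval is given.

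Of 21628 entries, 21 typed as other than protein-coding in GENCODE M21 (GRCm38) and 17 without a number in a library were left out, which leaves 21590. Folds are ratios of FPKM, and list medians use log2(FPKM + 1). Depth was sought over genes with 1 transcript and 400 to 2500 nt of exons, less 200 nt. Python 3.11.15, numpy 2.4.6, pandas 2.3.3 and matplotlib 3.10.9 were used, and the call rule was tested on simulated data. Promoter sequences are from RefSeq (GRCm38.p6), which held 3 of the 8 genes, and protein sequences were not used here.

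The 8 genes and the 17 other lists, which name 174 genes in all with the 8, were chosen with earlier results of these data known. Genes named are the 8, their 2 nearest genes, every gene of the 3 signalling lists and, in the other lists, the enriched genes, those at 0 in both libraries and the one with the highest FPKM. Of the enriched genes, 2 that count in the list totals are not reported here. Genes named outside this rule (flanking and overlapping genes and list genes at low levels) were chosen after their values were seen. Alternatives were other FPKM and fold minimums, pseudocounts, division by the FPKM sum and scaling by the median GFP-high to GFP-low ratio of 0.973.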

Additional observations from a re-analysis of the deposited data

How the results depend on the processing

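No paired analysis was possible because each population has 1 library and the result comes from no test. Of the 8 genes, 6 were enriched in GFP-low cells, and this count came to 0 with a minimum of 5 FPKM in both populations, which leaves out genes that are nearly silent in one of them. The same setting gave 0 neural crest factors in place of 4 in GFP-low and 0 in place of 1 in GFP-high cells, and 6 precursor and immature Schwann genes in place of 12. With a minimum of 1 FPKM 8 crest factors were enriched in GFP-low cells, and with no minimum 10, with 2 in GFP-high cells. With a 2-fold minimum, 0 precursor and immature Schwann genes were enriched in GFP-high cells. With a pseudocount of 0.1 the median log2 difference of the 8 genes was 5.02 in place of 3.59.

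A pseudocount of 1 FPKM brought the fold of *Sox10* to 29.0, of *Gpr17* 15.9, of *Gfra3* 15.1, of *Ednrb* 12.4, of *Fabp7* 11.7, of *Cdh19* 7.75 and of *S100b* 3.96. Minimums of FPKM or fold leave each fold as it is by construction. Medians of some lists turned direction: with genes of at least 1 FPKM on average they were 0.71 for myelination, 0.0643 for endothelin signalling, 0.17 for the GDNF family, -0.13 for relatives of the 8 genes and -0.20 for leukocytes and macrophages, and with libraries divided by their FPKM sum 0.0767 for endothelin signalling and 0.0133 for the GDNF family. That division lowers every GFP-high level against GFP-low by 0.10 on the log2 scale. At the rough depth estimate of 27500000 reads, about 4 reads for *S100b* to 77 for *Ednrb* stand behind the GFP-high values of the 7 uneven genes. The labels give about 75000000 reads, at which these numbers would be larger. Small numbers limit how well the folds are known, most for *S100b*, and 1 library per population leaves the error of all of them unmeasured.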

Other observations

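In all, 43 genes were at 5 FPKM or more in GFP-low cells and at least 20-fold higher there, 0.4% of the genes at 5 FPKM or more in a library. They include 6 of the 8 lineage genes and 5 other genes of the crest, Schwann and myelination lists, among them *Foxd3*, *Nkain4*, *Zeb2* and *Gap43*. The genes named next were picked after their values were seen. Several have known roles in glia or at the axon: *Gjc3*, a connexin of myelinating glia, was at 7.30 FPKM in GFP-low and 0.18 FPKM in GFP-high cells, *Plxnb3*, a semaphorin receptor, at 10.2 and 0.15 FPKM, and *Adam23*, a membrane protein that binds LGI proteins, at 26.4 and 0.58 FPKM. The potassium channel genes *Kcna1* (5.52 and 0.11 FPKM) and *Kcna6* (16.1 and 0.40 FPKM) and *Aspa*, the enzyme that splits N-acetylaspartate (5.73 and 0.17 FPKM), were in the same range. Other genes of the 43 belong elsewhere, among them 5 keratin and keratin-associated genes, of which *Krt84* was at 769 and 29.1 FPKM, and *Amelx* at 7.76 and 0.13 FPKM.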
